A study of Mus musculus with 8 samples.

Results

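The enzymes that attach ubiquitin to proteins and remove it were examined by RNA-seq in bone marrow derived macrophages, which are macrophages grown in culture from marrow precursors. The genes were chosen by name, as those whose symbols begin with Trim, Rnf, Usp, Fbxl, Fbxo, Fbxw, Cul or Ubr and a digit, or with Ube2, and by a mean level of at least 1 FPKM over all libraries. FPKM is a fragment level corrected for the length of the transcript and the size of the library. Of 155 genes with such names, 145 reached this level, among 5674 genes at that level and 6287 in the whole table; Usp18 was left out of the selection. The mice were wild type (genotype WT, the control group) or lacked Padi4 (genotype PAD4-/-), with 4 libraries of each genotype, and the study asked which genes differ between their macrophages. Padi4 encodes PAD4, which converts arginine to citrulline in proteins. The labels describe the cells as primary macrophages and give no treatment, strain, age or sex, and the 4 samples of a group are stated to be independent. The sample titles of both genotypes carry the term con, with no treatment named beside it. Since the labels name neither animals nor cultures, a p-value here sets a difference between groups against the variation among these libraries. Some of that variation may be technical.

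Ubiquitin is passed along a chain of enzymes. An E1 enzyme activates it, an E2 enzyme carries it on a cysteine, and an E3 ligase brings the E2 to the protein to be marked; deubiquitinases take it off again. Chains of different linkage send a protein to the proteasome or act as a scaffold for signalling, and in macrophages many steps below the Toll-like and RIG-I-like receptors are set by such chains. The Ube2 genes encode E2 enzymes. Most Trim and Rnf genes encode RING-type E3 ligases, cullins are the scaffolds of multi-subunit ligases whose F-box subunits (Fbxl, Fbxo, Fbxw) choose the substrate, and several Ubr proteins recognise N-terminal degradation signals. The Usp genes encode the largest family of deubiquitinases.

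The libraries were checked before the genes were described. Summed over the table, FPKM ranged from 381573 to 403848 by library, and the read depth is unknown. Knockout replicates 3 and 4 stood apart on the first principal component of all genes tested, at 17.7 and 16.1, from knockout replicates 1 and 2 at -0.91 and 1.42 and from the wild-type libraries at -9.02 to -8.15. Of 10 macrophage markers, 8 were listed, all above the minimum in every library. Csf1r, the receptor that macrophages need to survive, lay between 527 and 757 FPKM. Of these 8 markers, 7 were called higher in the knockout (87.5%, against 21.1% of all genes tested). The number was 3 with median-of-ratios scaling (described below), 4 without knockout replicates 3 and 4, and 3 in the authors' deposited table. The summed level of the 8 was 17699 to 18317 FPKM in wild type and 19311 to 25196 in the knockout. These sums mostly follow 1 gene, with a mean of 18418 FPKM where the median of the 8 was 232. The summed level of Acp5 and Ctsk, markers of osteoclasts, which form from the same precursors, was 16.85 to 20.19 FPKM in wild type and 9.19 to 11.24 in the knockout, and both fell. The part of these markers in the results was not tested. Of the neutrophil list, Lcn2 was the only listed gene and did not exceed 1.13 FPKM. Lymphocyte, mast cell and erythroid markers and Padi4 itself were not analysed here, so the deleted gene gave no check of the genotypes.

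Most ubiquitin pathway genes differed little between the genotypes. Of the 145, 28 rose and 3 fell in the knockout in limma at an adjusted p below 0.05. These are 19.3% and 2.07% of the genes, where 21.1% of all genes tested rose and 6.61% fell (27.7% were called in either direction). The count of rises was therefore near that of genes in general. Groups did not overlap for 40 genes that were higher and 4 that were lower, which is 30.3% against 31.1% of all genes tested (24.0% higher and 7.12% lower). Log2 fold changes on the log2(FPKM + 1) scale ran from -0.33 (Trim13) to 0.68 (Trim30d), with a median of 0.11 where that of all genes tested was 0.082. Of the called genes, none changed by more than 0.48.

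How many genes were called depended on the scaling and on single libraries. Median-of-ratios scaling, in which the typical gene is taken not to change, gave 11 rises and 8 falls, where 9.06% of all genes tested rose and 11.2% fell. The share of rises among the called ubiquitin pathway genes was 57.9% with this scaling and 90.3% without it. The 11 rises and 3 of the 8 falls were also called on the deposited scale. Quantile normalization gave 7 rises and 7 falls, and scaling each library to the same sum gave 44 rises. Over all 5674 genes tested, the former gave 488 rises and 521 falls and the latter 1558 rises. The number of rises among ubiquitin pathway genes was 45 without knockout replicate 1, 16 without knockout replicate 3, 16 without wild-type replicate 1 and 17 without wild-type replicate 2. Over all genes tested, the rises in these fits were 1682, 681, 661 and 647, where all libraries gave 1195. The counts over all genes thus moved in the same direction. Without knockout replicates 3 and 4 together, 16 ubiquitin pathway genes rose and 2 fell (11.7% and 5.13% of all genes tested). Of these, 14 rises and 1 fall were also called with all libraries.

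**Figure D1:**
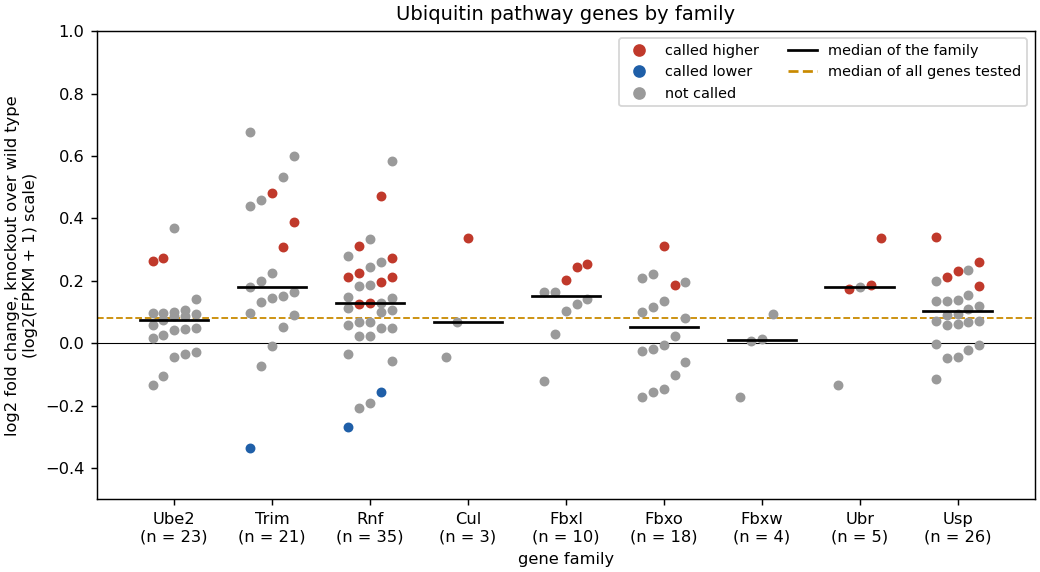
Log2 fold change of each of the 145 ubiquitin pathway genes, knockout over wild type, on the log2(FPKM + 1) scale (vertical axis), by gene family (horizontal axis, n genes each); black bars are family medians and the dashed line is the median of all genes tested, 0.082. The called genes (red, 28 higher; blue, 3 lower) lie between -0.33 and 0.48, while the highest points, among Trim and Rnf genes, were not called.

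Among the 23 E2 genes, 2 rose and none fell, which is 8.70% of the family. Ube2d1, of the UBE2D group that works with many RING ligases, read 15.06, 13.97, 14.72 and 15.36 FPKM in wild-type replicates 1 to 4 and 16.13, 16.5, 19.21 and 20.87 in knockout replicates 1 to 4. The groups did not overlap, and replicates 3 and 4 were the highest. Its log2 fold change was 0.27 (SE 0.078, adjusted p = 0.0280 in limma). Ube2e3, another E2 enzyme, rose from 32.3 ± 1.73 FPKM (SD, n = 4) to 39.2 ± 4.26 (adjusted p = 0.0263 in limma). Neither call held with median-of-ratios scaling or without knockout replicates 3 and 4, and the family had no rise without knockout replicate 3 or wild-type replicate 1 or 2, and 1 without knockout replicate 4 or wild-type replicate 3 or 4. The most abundant E2 gene, Ube2d3, lay at 140 ± 3.17 FPKM in wild type and 136 ± 5.81 in the knockout (adjusted p = 0.456 in limma), values that overlapped. Ube2a, which acts in DNA damage tolerance, had groups that did not overlap, at 44.58 to 46.77 FPKM in wild type and 38.22 to 43.58 in the knockout. It was not called on the deposited scale (adjusted p = 0.0579), but was lower with median-of-ratios scaling and without knockout replicates 3 and 4; it was singled out after its values were seen.

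Of 3 cullin genes, Cul1 rose. Cul1 (GRCm38 chromosome 6, 47453732 to 47526144) encodes the scaffold of the SCF ligases, on which F-box proteins are mounted. Its levels were 73.05, 70.47, 70.75 and 66.32 FPKM in wild-type replicates 1 to 4 and 88.57, 83.61, 93.9 and 89.96 in knockout replicates 1 to 4. Every knockout library lay above every wild-type library, with replicate 2 the lowest and replicate 3 the highest of the knockout. The log2 fold change was 0.34 (SE 0.048, adjusted p = 0.00261 in limma), and the ratio of the means was 1.27. With median-of-ratios scaling it was 0.25, and without knockout replicates 3 and 4 it was 0.29; the adjusted p lay between 0.00145 and 0.0174 in the 18 alternatives. Cul3 and Cul5, which encode other cullin scaffolds, had log2 fold changes of -0.04 and 0.07 and were not called. The remaining cullin genes were not analysed here.

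Among the 32 F-box genes, 5 rose and none fell, against 3 and 1 after median-of-ratios scaling. Fbxl20, a substrate receptor with leucine-rich repeats, read 7.81, 8.3, 8.14 and 8.59 FPKM in wild-type replicates 1 to 4 and 9.72, 9.71, 10.26 and 10.21 in knockout replicates 1 to 4. The 4 knockout libraries lay close together and above all wild-type libraries (log2 fold change 0.25, SE 0.048, adjusted p = 0.00659 in limma). Fbxl19 rose from 9.07 ± 0.256 to 10.96 ± 0.821 FPKM and Fbxo31 from 4.53 ± 0.169 to 5.88 ± 0.640; both calls were lost without knockout replicates 3 and 4. Fbxo11, which in humans and mice directs BCL6 to degradation, rose from 23.9 ± 0.765 to 27.3 ± 1.05 FPKM, but was not called under median-of-ratios scaling (adjusted p = 0.166; between 0.0127 and 0.176 in the 18 alternatives). Fbxl18 rose from 1.55 ± 0.0984 to 1.94 ± 0.166 FPKM and was not called when any single library other than knockout replicate 2 was left out. None of the 4 Fbxw genes was called.

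Some F-box genes differed between knockout libraries more than between genotypes. Fbxo32, which encodes atrogin-1, a ligase subunit known from muscle wasting, read 2.22, 2.33, 2.2 and 2.36 FPKM in wild type, 2.6 and 2.59 in knockout replicates 1 and 2, and 1.43 and 1.39 in replicates 3 and 4. It lay above wild type in the former pair and below it in the latter. Fbxo30 read 17.28 to 18.55 FPKM in wild type. Its knockout replicates 1 and 2, at 19 and 18.31 FPKM, lay above and within that range, and replicates 3 and 4, at 13.11 and 13.65, lay below it. Neither was called (adjusted p = 0.410 and 0.249 in limma), and both were singled out after their values were seen.

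Of the Ubr genes, Ubr4 and Ubr2 rose. In these and in Ubr1 and Ubr7, the wild-type and knockout libraries did not overlap; Ubr7 was lower in the knockout and the other three were higher. Ubr4 (GRCm38 chromosome 4, 139380659 to 139489533), a very large ligase of the N-degron pathway, read 37.42, 35.78, 35.04 and 35.12 FPKM in wild-type replicates 1 to 4 and 41.45, 46.2, 49.29 and 45.45 in knockout replicates 1 to 4. The lowest knockout library lay above the highest wild-type library. The log2 fold change was 0.34 (SE 0.054, adjusted p = 0.00398 in limma). It was 0.25 with median-of-ratios scaling and 0.28 without knockout replicates 3 and 4, and its adjusted p lay between 0.0011 and 0.0262 in the 18 alternatives. Ubr4 lies on the same chromosome as Padi4, in its neighbourhood. Of 8 other tested neighbours, Rcc2 rose (log2 fold change 0.32, adjusted p = 0.00537), none fell, and the median was 0.076.

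Ubr2, Ubr1 and Ubr7 had smaller differences. Ubr2, a recognin of N-terminal signals, was nearly constant in wild type, at 19.08 to 19.4 FPKM, and lay at 21.12, 21.77, 23.14 and 22.28 in the 4 knockout libraries (log2 fold change 0.19, SE 0.042, adjusted p = 0.0121 in limma). All 4 knockout libraries lay above wild type. It was not called with median-of-ratios scaling (adjusted p = 0.0844; between 0.00622 and 0.268 in the 18 alternatives) or without knockout replicates 3 and 4. Ubr1 lay at 1.63 to 1.97 FPKM in wild type and 2 to 2.31 in the knockout and was not called (adjusted p = 0.0638). Ubr7 read 9.19 to 10.14 FPKM in wild type and 8.54 to 9.1 in the knockout; it was called lower with median-of-ratios scaling (adjusted p = 0.0160) and not on the deposited scale (adjusted p = 0.0649).

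Among the 26 Usp deubiquitinase genes, 5 rose and none fell. The number of rises was 8 without knockout replicate 1, and 2 with median-of-ratios scaling. Usp20 read 3.09, 3.11, 3.06 and 3.02 FPKM in wild-type replicates 1 to 4 and 3.49, 4.27, 4.52 and 4.42 in knockout replicates 1 to 4. Knockout replicate 1 was the closest to wild type, but still above it (log2 fold change 0.34, SE 0.071, adjusted p = 0.00938 in limma). Usp40 rose from 3.67 ± 0.147 to 4.59 ± 0.233 FPKM, and these 2 genes were the ones also called with median-of-ratios scaling. Usp34, a very large enzyme, rose from 14.4 ± 0.644 to 17.1 ± 0.848 FPKM, with its highest values in knockout replicates 1 and 2 (17.73 and 17.79). Usp9x, an X-linked enzyme that protects many proteins from degradation, and Usp28, a stabiliser of MYC, rose to ratios of 1.14 and 1.19. Usp28 was not called without knockout replicate 3 or 4 or any wild-type library.

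**Figure D2:**
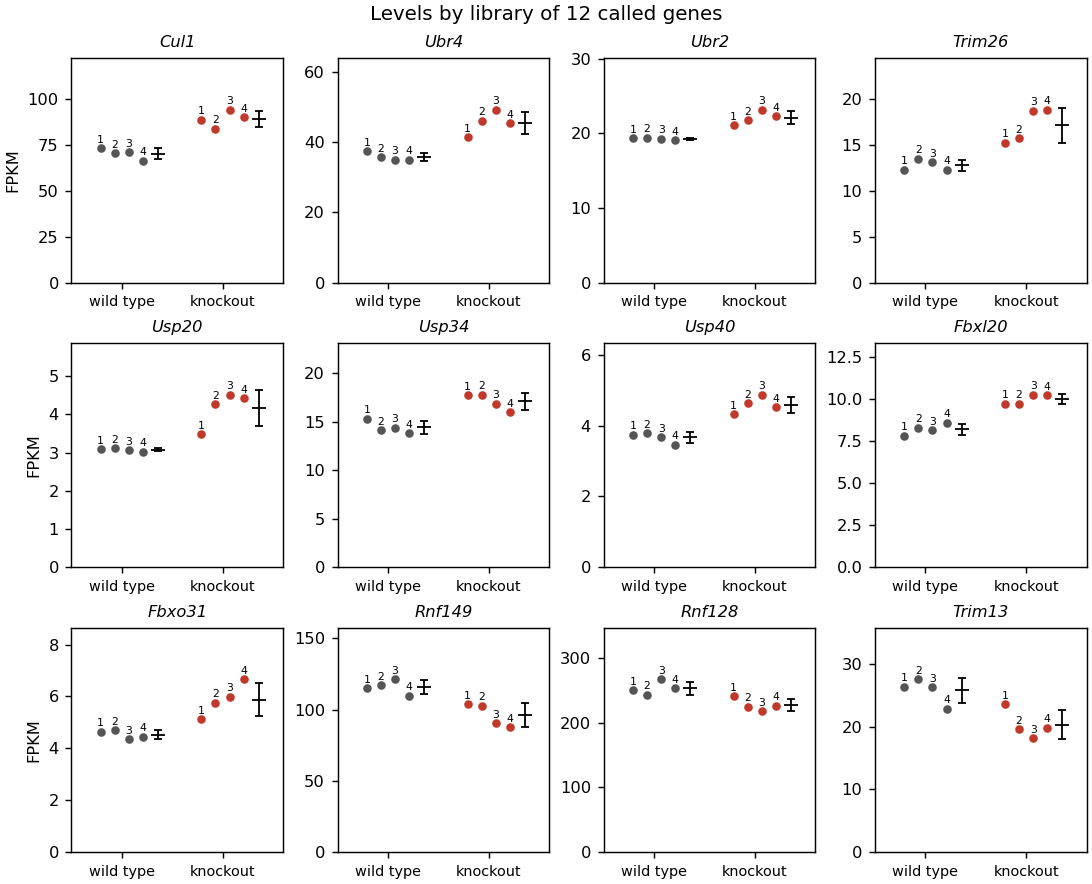
FPKM (vertical axes, from 0) of 12 called genes in the 4 wild-type (grey) and 4 knockout (red) libraries, numbered by replicate; dashes with bars are the mean and SD of 4. Cul1, Ubr4, Ubr2, Usp20, Usp34, Usp40, Fbxl20 and Fbxo31 had no overlap between groups, as had Trim26, Rnf149 and Rnf128, while knockout replicate 1 of Trim13 (23.61) lay above wild-type replicate 4 (22.9).

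Among the 35 Rnf genes, 9 rose and 2 fell, against 2 and 4 after median-of-ratios scaling. The rises were 14 without knockout replicate 1, 2 without knockout replicate 3 or wild-type replicate 1, 3 without wild-type replicate 2, 4 without knockout replicate 4 and 5 without wild-type replicate 3. Rnf149, a membrane-anchored RING protein and among the most abundant genes of the pathway, read 114.91, 116.99, 121.24 and 109.82 FPKM in wild-type replicates 1 to 4 and 103.91, 102.66, 90.47 and 87.71 in knockout replicates 1 to 4. All knockout libraries were below all wild-type libraries, and replicates 3 and 4 were the lowest. Its log2 fold change was -0.27 (SE 0.063, adjusted p = 0.0140 in limma), and the call held in each of the 18 alternatives (adjusted p 0.00549 to 0.0467). Rnf128, known as GRAIL, a ligase first described for restraining T cell activation, had the highest level of all 145 genes. It fell from 253 ± 10.01 to 227 ± 9.93 FPKM without overlap (adjusted p = 0.0318 in limma), but the call was lost without any of wild-type replicates 1, 3 and 4 or knockout replicates 2, 3 and 4.

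The Rnf genes that rose had small changes. Rnf167, a ligase of lysosomes and endosomes, read 8.65, 9.55, 8.76 and 9.48 FPKM in wild-type replicates 1 to 4 and 10.05, 11.59, 12.33 and 12.29 in knockout replicates 1 to 4. The groups did not overlap (log2 fold change 0.31, SE 0.068, adjusted p = 0.0113 in limma). Rnf169 and Rnf168, which act at DNA double-strand breaks, rose to ratios of 1.25 and 1.18. Rnf31, the catalytic subunit of the linear ubiquitin ligase LUBAC, rose from 9.94 ± 0.782 to 14.4 ± 3.45 FPKM, with wide spread in the knockout and an overlap of the groups; its call was lost without knockout replicate 3 or 4 or any wild-type library. Rnf19b, a ligase of the RBR type found in macrophages and natural killer cells, rose from 168 ± 7.58 to 183 ± 3.72 FPKM (adjusted p = 0.0483 in limma), a call kept in 3 of 18 alternatives. The remaining rises were Rnf24, Rnf44, Rnf139, a sterol-linked ligase of the endoplasmic reticulum, and Rnf214, at ratios of 1.09 to 1.20. These 4 and Rnf168 were not called without knockout replicate 3 and not without wild-type replicate 1. With Usp9x and Usp28 they lie outside the rule for named genes and are given to complete the count. Rnf115, also abundant, lay at 108 ± 7.33 and 112 ± 8.30 FPKM, which overlapped.

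Among the 21 Trim genes, 3 rose and 1 fell, and the number of rises was 11 without knockout replicate 1 and 6 without knockout replicate 2. Trim13, a ligase anchored in the endoplasmic reticulum membrane, read 26.41, 27.59, 26.35 and 22.9 FPKM in wild-type replicates 1 to 4 and 23.61, 19.59, 18.2 and 19.85 in knockout replicates 1 to 4. The groups overlapped by 1 library each. Its log2 fold change of -0.33 (SE 0.081, adjusted p = 0.0161 in limma) was the largest decrease of the 145, and the call was lost without wild-type replicate 2 and without knockout replicates 3 and 4 (adjusted p = 0.00267 to 0.0626 in the 18 alternatives). Trim26 read 12.3, 13.5, 13.13 and 12.29 FPKM in wild type and 15.24, 15.74, 18.74 and 18.83 in knockout replicates 1 to 4. All 4 knockout libraries lay above wild type, and its call (log2 fold change 0.39, SE 0.074, adjusted p = 0.00699 in limma) held in each alternative. Trim65, a ligase described in humans and mice as acting on the RNA sensor MDA5, rose from 2.31 ± 0.257 to 3.09 ± 0.137 FPKM. Trim14, which lacks a RING domain, rose from 10.4 ± 0.519 to 15.4 ± 4.07 (adjusted p = 0.0492 in limma), a call lost without any 1 of knockout replicates 3 and 4 or the 4 wild-type libraries.

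The widest spread within the knockout belonged to genes induced by interferon. A list of interferon-inducible genes of the ubiquitin and ISG15 pathways held 12 of the 145: Trim12a, Trim14, Trim21, Trim25, Trim26, Trim30a, Trim30d, Trim34a, Rnf31, Rnf114, Rnf213 and Ube2l6. All 12 had a higher mean in the knockout, 3 rose in limma (Trim14, Trim26 and Rnf31) and none fell. The number of rises was 7 without knockout replicate 1 and 6 without knockout replicate 2. It was 1 without knockout replicate 3 or 4, without any single wild-type library, and with median-of-ratios scaling. In all 12, knockout replicates 3 and 4 were the 2 highest of 8 libraries; this order held for 31.6% of the other 133 genes and for 32.8% of all genes tested. Their median difference from the wild-type mean on the log2(FPKM + 1) scale was 0.097 and 0.080 in knockout replicates 1 and 2, and 0.84 and 0.72 in replicates 3 and 4. The wild-type libraries ran from -0.12 to 0.069. Over the other 133 genes it was 0.077, 0.059, 0.12 and 0.10 in knockout replicates 1 to 4, close to the 0.053, 0.063, 0.11 and 0.095 of all genes tested.

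**Figure D3:**
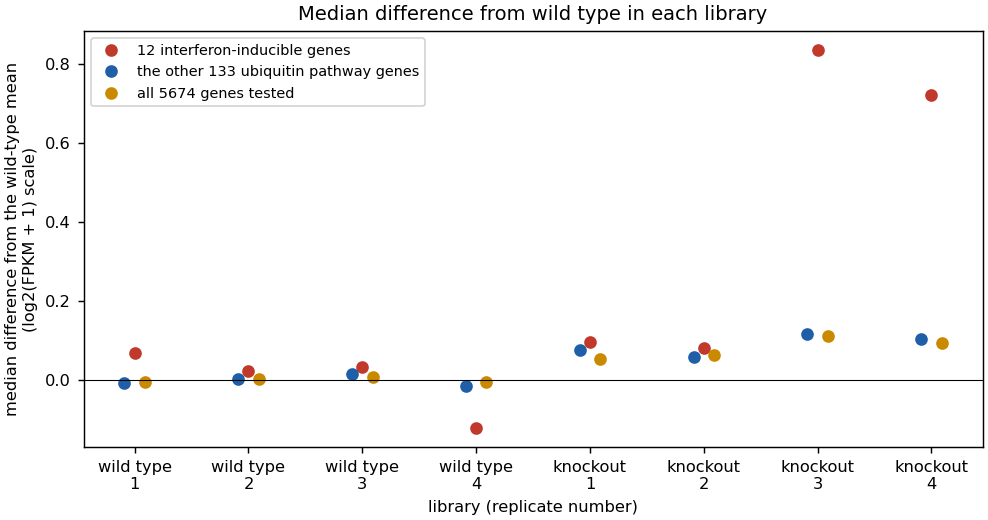
Median difference from the wild-type mean on the log2(FPKM + 1) scale (vertical axis) in each library (horizontal axis) for the 12 interferon-inducible genes, the other 133 ubiquitin pathway genes and all genes tested. The 12 reach 0.84 and 0.72 in knockout replicates 3 and 4 and lie between -0.12 and 0.097 elsewhere.

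Trim30d and Trim30a, neighbouring mouse genes of a Trim cluster, were among those that varied in this way. Trim30d read 3.17, 3.32, 3.56 and 2.22 FPKM in wild-type replicates 1 to 4, 3.49 and 3.26 in knockout replicates 1 and 2, and 9.72 and 7.45 in replicates 3 and 4. Trim30a read 15.82, 14.46, 14.06 and 10.59 in wild type, then 14, 13.23, 32.07 and 27.19 in knockout replicates 1 to 4. In both genes, 2 knockout libraries lay within the wild-type range and 2 above it. Neither was called, with log2 fold changes of 0.68 (SE 0.309) and 0.53 (SE 0.293) and adjusted p = 0.132 and 0.195 in limma. Without knockout replicates 3 and 4 the fold changes were 0.12 and 0.0014. How far reads of these neighbouring genes could be told apart was not tested, so the level of each is uncertain.

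Rnf213, which encodes a giant ligase with an ATPase domain, read 22.67, 19.41, 19.71 and 15.41 FPKM in wild-type replicates 1 to 4 and 19.36, 20.3, 49.62 and 36.94 in knockout replicates 1 to 4. Ube2l6, the E2 enzyme for the ubiquitin-like protein ISG15, was even in wild type at 31.72 to 33.54 FPKM and read 30.9, 31.92, 58.46 and 56.67 in knockout replicates 1 to 4. Replicates 1 and 2 thus lay below and within the wild-type range. The log2 fold changes were 0.59 (SE 0.300) for Rnf213 and 0.37 (SE 0.219) for Ube2l6, and neither was called (adjusted p = 0.169 and 0.227 in limma). Trim34a lay at 2.67 to 3.64 FPKM in wild type and 3.29, 3.38, 8.51 and 6.51 in the knockout, and passed without knockout replicate 1 (adjusted p = 0.0441; up to 0.692 in the 17 alternatives that tested it). Trim21, the cytosolic receptor for antibodies, read 8.52 to 10.7 FPKM in wild type and 10.5, 10.22, 17.44 and 16.14 in the knockout; it passed without knockout replicate 1 or 2. Trim25, an activator of the RNA sensor RIG-I in humans and mice, differed least, at 47.21 to 51.44 FPKM in wild type and 50.78, 49.85, 61.71 and 57.75 in the knockout.

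**Figure D4:**
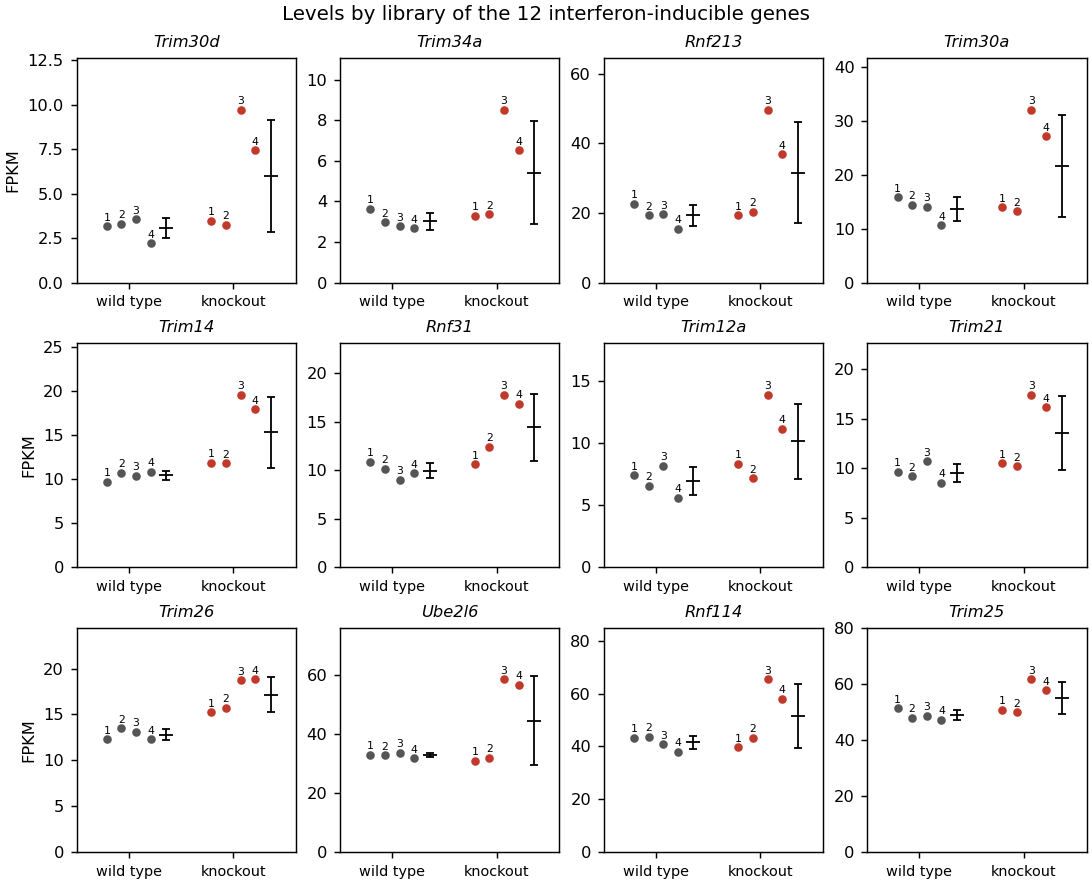
FPKM (vertical axes, from 0) of the 12 interferon-inducible ubiquitin pathway genes in the 4 wild-type (grey) and 4 knockout (red) libraries, numbered by replicate; dashes with bars are the mean and SD of 4. Knockout replicates 3 and 4 are the 2 highest libraries in every panel, and knockout replicates 1 and 2 clear all wild-type libraries in Trim14 and Trim26.

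Other interferon-response genes moved with these 12. Of 31 tested genes of a general interferon list, 5 rose (16.1%, where 21.1% of all genes tested rose) and none fell. Calls of a rise were thus not more frequent than among genes in general. In all 31, knockout replicates 3 and 4 were the 2 highest libraries. Their summed level was 868 to 992 FPKM in wild type, 1045 and 1085 in knockout replicates 1 and 2, and 2083 and 1892 in replicates 3 and 4. Ly6e, which encodes a small membrane protein with antiviral roles, had the largest change of the 3 such genes picked by the rule (log2 fold change 1.76, adjusted p = 0.0148 in limma). It read 11.93 to 15.27 FPKM in wild type and 25.61, 31.27, 83.04 and 75.34 in knockout replicates 1 to 4. Without knockout replicates 3 and 4, Ly6e, Bst2 and Lgals3bp were still called higher. In that fit 6 of the 31 rose and 1 fell, where 11.7% and 5.13% of all genes tested did. The median log2 fold change of the 31 was 0.69 with all libraries and 0.082 in that fit. Isg15 itself read 32.38 to 57.14 FPKM in wild type and 117.73 and 102.9 in knockout replicates 3 and 4, and was not called (adjusted p = 0.340). The part of this state of replicates 3 and 4 in the differences between genotypes was not tested. The summed level of the 8 macrophage markers, which mostly follows 1 gene, was also higher in replicates 3 and 4 (24270 and 25196 FPKM) than in replicates 1 and 2 (19407 and 19311). The median difference of the 8 from the wild-type mean on the log2(FPKM + 1) scale was 0.19, 0.19, 0.44 and 0.41 in knockout replicates 1 to 4. In bulk RNA, a different number of cells of a type and a different amount of RNA per cell cannot be told apart.

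**Figure D5:**
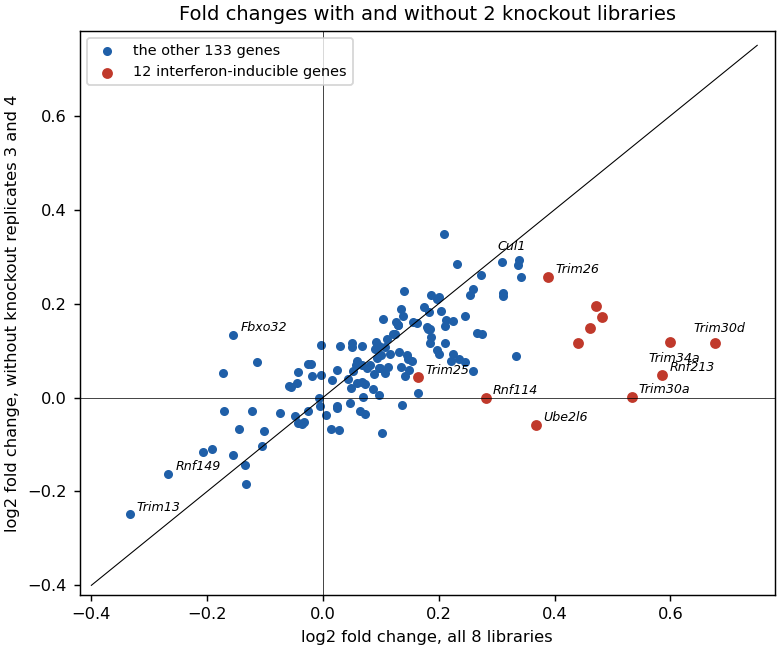
Log2 fold change of each of the 145 genes, knockout over wild type, with all 8 libraries (horizontal axis) and without knockout replicates 3 and 4 (vertical axis); the diagonal marks equal values. Most of the 12 interferon-inducible genes (red) lie far below the diagonal, as Trim30a at 0.53 and 0.0014, whereas Cul1 keeps 0.29 of 0.34.

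Some of the interferon-inducible Trim genes also shared a place or a sequence element. Trim14, Trim25 and Trim26 lie on chromosomes 4, 11 and 17. Of the 12, 5 lie on GRCm38 chromosome 7, where Trim34a (104244448 to 104262244), Trim12a (104299893 to 104315558), Trim30a (104409025 to 104465193) and Trim30d (104470014 to 104507853) are neighbours, and Trim21 lies apart from them (102557920 to 102565482). Between and beside these neighbours lie Trim30c (104379117 to 104400852) and Trim6 (104218795 to 104235152), which were below the minimum and not tested. Trim6 had a mean of 0.855 FPKM, just under the minimum. Trim30c read 0.19 to 0.62 in wild type, 0.21 and 0.13 in knockout replicates 1 and 2, and 1.35 and 1.04 in replicates 3 and 4. Next under the minimum was Trim45 (mean 0.799 FPKM), and just above it were Trim36 (1.24) and Fbxl18 (1.74).

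Promoter windows (250 bases before to 50 after the start of a gene, from RefSeq on GRCm38.p6) were found for 115 of the 145 genes and searched on both strands for the core letters of the interferon-stimulated response element, GAAA, any 2 bases and GAAA again (TTTC, any 2 bases and TTTC when read on the opposite strand). A gene with several start sites was counted if any window held a match. Of the 12 interferon-inducible genes 11 had a window and 6 of these held a match (54.5%), against 3 of 104 of the other genes (2.88%), 4.29% of all genes tested with a window and 3.99% of all genes in the promoter table. Trim14 had no window, and those of Trim25, Rnf31, Rnf114, Rnf213 and Ube2l6 held no match, though these genes were high in the same libraries. The stretches around the matches in the 6 genes that held one are shown because these genes share the letters. Matched letters are in capitals, and each stretch is read 5′ to 3′ on the strand of its gene.
Trim21: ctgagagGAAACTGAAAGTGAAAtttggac
Trim26: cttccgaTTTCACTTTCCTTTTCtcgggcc
Trim34a: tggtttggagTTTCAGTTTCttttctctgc
Trim12a: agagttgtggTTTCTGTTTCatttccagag
Trim30a: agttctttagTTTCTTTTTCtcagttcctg
Trim30d: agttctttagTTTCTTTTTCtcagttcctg

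These stretches lie at chr7:102565447-102565476 (minus strand) for Trim21, chr17:36836979-36837008 (plus) for Trim26, chr7:104244457-104244486 (plus) for Trim34a, chr7:104315466-104315495 (minus) for Trim12a, chr7:104465210-104465239 (minus) for Trim30a and chr7:104507871-104507900 (minus) for Trim30d. Trim21 and Trim26 each held 2 overlapping matches. The stretches of Trim30a and Trim30d have the same letters, and a further window of Trim30a, at an internal start, held a match too. A match describes letters, not a bound site.

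Cul1 was among the 3 other genes with a match, with Fbxo7 and Fbxl15. Its match lay in 1 of its 3 windows, near the far end from the start site. It is shown beside the Trim genes, since all 4 knockout libraries of Cul1 lay above all wild-type libraries. Knockout replicates 3 and 4 were the highest, at 93.9 and 89.96 FPKM, but close to replicates 1 and 2 at 88.57 and 83.61. That order held for 32.8% of all genes tested.
Cul1: catatacagtGAAAGTGAAAaaaggctctc

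That stretch is at chr6:47453489-47453518 (plus strand). The window of Ubr4 had no match and a G and C share of 67.3%, and that of Trim34a, one of the interferon-inducible genes, a share of 46.0%. The interferon-inducible genes without a match, Rnf213, Rnf114, Ube2l6, Rnf31 and Trim25, had mean shares of 67%, 68.2%, 59.7%, 60% and 62.7%. Over the 115 genes with a window, Spearman's rho between this share and the log2 fold change was -0.10. The windows of Ubr4 and Trim34a are shown as hand-picked examples and do not stand for other genes. Matched letters are in capitals. The windows are chr4:139380409-139380708 and chr7:104244207-104244506, both on the plus strand.
Ubr4: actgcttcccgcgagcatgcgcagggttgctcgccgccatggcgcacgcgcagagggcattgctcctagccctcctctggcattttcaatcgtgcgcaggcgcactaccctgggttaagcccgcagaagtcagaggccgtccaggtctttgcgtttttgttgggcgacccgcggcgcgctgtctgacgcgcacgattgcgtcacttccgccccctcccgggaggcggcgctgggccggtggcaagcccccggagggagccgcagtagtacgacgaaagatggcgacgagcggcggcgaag
Trim34a: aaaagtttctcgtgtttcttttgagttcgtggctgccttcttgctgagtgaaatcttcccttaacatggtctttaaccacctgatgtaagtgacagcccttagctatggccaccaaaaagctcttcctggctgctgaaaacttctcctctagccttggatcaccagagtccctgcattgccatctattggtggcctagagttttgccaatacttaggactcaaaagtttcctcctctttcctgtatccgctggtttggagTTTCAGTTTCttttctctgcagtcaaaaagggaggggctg

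Across the 145 genes, the fold change had little rank correlation with transcript length. Spearman's rho between the log2 fold change and the length of the longest protein-coding GENCODE transcript of each gene was -0.00094, 0.098 without the 12 interferon-inducible genes, and 0.12 over the 5598 genes tested that had a length; genes are not independent replicates, and FPKM itself is scaled by length. The relation to the mean FPKM was weakly negative, with rho of -0.22 over the 145 genes and -0.17 over all genes tested. By level, 11 of 51 genes under 10 FPKM, 13 of 64 from 10 to 40 FPKM and 4 of 30 at 40 FPKM or more rose, and the falls were 0, 1 and 2 in these classes.

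Ubiquitin pathway genes outside these families were read from lists. Of all genes tested, 21.1% rose and 6.61% fell on the deposited scale, and 9.06% and 11.2% with median-of-ratios scaling. Of 3 tested E1 genes, Uba1, the main activating enzyme, rose from 121 ± 2.90 to 132 ± 3.25 FPKM (adjusted p = 0.0455 in limma), and was not called under median-of-ratios scaling (adjusted p = 0.639; 0.0297 to 0.639 in the 18 alternatives). Of 15 HECT ligases 5 rose (33.3%) and 1 fell (6.67%), against 2 and 2 with median-of-ratios scaling, with a median log2 fold change of 0.14. Herc2 and Herc1, giant ligases, rose to ratios of 1.25 and 1.22 and Huwe1 to 1.18. Of 44 other RING and RBR ligases 11 rose and 3 fell (6 and 4 with that scaling), with a median of 0.084. Birc2, which encodes the inhibitor of apoptosis cIAP1, rose from 3.29 ± 0.373 to 5.52 ± 0.962 FPKM (log2 fold change 0.60, adjusted p = 0.00533 in limma), more than any called gene of the 145. Peli2, a ligase of interleukin 1 and Toll-like receptor signalling, rose to a ratio of 1.52, and Pja2 to 1.26.

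Of 41 cullin adaptors and regulators 5 rose (12.2%) and 1 fell (2.44%), against 1 and 4 after median-of-ratios scaling. Keap1, the adaptor that holds NRF2 in check, rose from 27.4 ± 0.461 to 35.3 ± 3.87 FPKM (adjusted p = 0.00850 in limma), and Klhl6 fell from 12.7 ± 0.535 to 10.1 ± 0.944. Of 21 deubiquitinases of other families 2 rose (9.52%) and 2 fell (9.52%), against 1 and 5 with that scaling. Psmd14, the deubiquitinase of the proteasome lid, fell from 102 ± 5.86 to 87.2 ± 3.48 FPKM (adjusted p = 0.0138 in limma), and Stambpl1 rose to a ratio of 1.26. Of 21 ubiquitin receptors and cofactors of the segregase p97, Tax1bp1, an autophagy receptor, fell from 159 ± 3.87 to 129 ± 10.8, and Vcp, which encodes p97, rose to a ratio of 1.08 but not under that scaling. Of 7 genes of the anaphase promoting complex, Anapc1 and Cdc23 rose, 5 had a lower mean in the knockout, and the median log2 fold change was -0.04. No gene of the complex was called with median-of-ratios scaling, and both calls were also lost without knockout replicate 3 and without wild-type replicate 1, 2 or 3. Of 11 ubiquitin and ubiquitin-like genes Atg12 fell, to a ratio of 0.832, and of 2 other conjugating enzymes Atg3 fell, to 0.895. The calls of Uba1, Vcp, Atg12 and Atg3 were each lost without knockout replicate 3, among other single libraries.

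With a q-value limit of 0.05, the authors' deposited table called 14 of the 145 genes higher and 8 lower, where it called 9.89% and 10.6% of all genes tested. Of these 22, 15 were also called here, which is 68.2% of the authors' calls and 48.4% of the 31 calls here, all in the same direction. In the authors' deposited table, Cul1 had a log2 fold change of 0.26 (q-value 3.2e-05) and Ubr4 0.26 (q-value 9.98e-05). The authors' deposited table gave Rnf149 -0.35 and Trim13 -0.43. Its median over the 145 genes was 0.042 and over all genes tested 0.012, where the values found here were 0.11 and 0.082.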

How the data were processed

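Total RNA of 8 macrophage samples was sequenced, per the labels' protocols by a BGISEQ library method after Trizol extraction. The authors deposited FPKM per gene, rounded to 2 decimals; per the submitters' notes on processing, the tools were RSEM, HISAT and Bowtie2 on GRCm38, whose versions no source used here gives. The authors' table also holds a log2 fold change and a q-value per gene, and no source used here names the test behind them. RSEM estimates fragment numbers, so read depth could not be recovered, and no counting interval is given.

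Groups came from the genotype labels. Genes with a mean of at least 1 FPKM were tested on log2(FPKM + 1) with limma (3.58.1, R 4.3.3), using trend and robust settings, two-sided, and Benjamini-Hochberg adjustment over all 5674 genes; calls have an adjusted p below 0.05. This scale understates fold changes of low genes, so ratios of mean FPKM are given too. Coordinates and promoter windows are from RefSeq (GRCm38.p6), matched by gene ID for 6271 of 6287 genes and all 145 described. Tables were joined in Python 3.11.15 with pandas 2.3.3. The test was tried on simulated data first.

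The genes, lists and tests were chosen with earlier results of these data known. Genes named are Ubr4, the 12 called genes with the largest change in each direction, up to 3 called genes per family and per list with the smallest adjusted p, the 5 most abundant, the 5 most variable in the knockout, and 2 on each side of the minimum; others named were chosen after their values were seen, among them further called genes, interferon-inducible genes and small families. The alternatives were other pseudocounts, filters, scalings and limma settings, a replicate block, and each library left out; leaving out knockout replicates 3 and 4, alone or with median-of-ratios scaling, was chosen after seeing the data. Some single-gene results are left out here.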

Additional observations from a re-analysis of the deposited data

Results flagged for a closer look

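In 138 groups of 4 libraries, those of the genes named by rule or afterwards, 5 held a library set apart from the other 3 by most of the group's range; chance flags about 1 in 20 groups. Among the ubiquitin pathway genes described, Rnf24 was highest in wild-type replicate 3, at 5.91 FPKM with the nearest library at 5.48. Trim65 was highest in wild-type replicate 2, at 2.69 FPKM with the nearest at 2.21. Usp9x was lowest in wild-type replicate 4, at 35.06 FPKM with the nearest at 37.91. Among genes of other lists, Uba1 was highest in wild-type replicate 4, at 125.69 FPKM, and Dcaf5, a cullin adaptor, was lowest there, at 8.13 FPKM.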

How the results depend on the processing

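Of the ubiquitin pathway genes named, 44 were followed through 18 alternatives (17 where a filter at 5 FPKM removed the gene), and none reversed. Cul1, Ubr4, Trim26 and Rnf149 were called in all 18. Of the 14 that were not called, 9 were called in no alternative. Median-of-ratios scaling gave 11 rises and 8 falls among the 145 genes, and 514 and 636 among all genes tested, where the deposited scale gave 1195 and 375. Quantile normalization gave 7 and 7 among the 145 and 488 rises among all, and the TPM scale gave 44 rises among the 145 and 1558 among all. Without knockout replicates 3 and 4 there were 16 rises among the 145 and 666 among all, and with median-of-ratios scaling as well 5 rises and 5 falls among the 145 and 273 rises among all. Leaving out 1 library at a time gave 16 to 45 rises and 2 to 3 falls among the 145, and 647 to 1682 rises and 237 to 544 falls among all genes. The cause of these shifts was not tested.

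The median of the 145 genes stayed 0.016 to 0.030 above that of all genes in the alternatives, with 0.024 on the deposited scale. Libraries that share a replicate number did not deviate together (correlations of -0.14 to -0.032), so the numbers were not used to pair them; a fit with the replicate number as a block gave 25 rises and 2 falls. Depth is unknown, so precision at low levels, as for Ubr1 or Fbxl18, could not be set by counting.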
